A study of Arabidopsis thaliana with 6 samples.

Results

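The 29 Aux/IAA genes and 8 GH3 genes of *Arabidopsis thaliana* were compared between WT seeds and seeds mutant for *AGL62* at 30 hr after pollination. The 37 genes were taken by locus identifier from the 32678 genes of the deposited table, and all 37 were found there. *AGL62* encodes a type I MADS-box transcription factor of the endosperm, the nourishing tissue that forms after fertilization of the central cell. Per the methods, the seeds labelled *agl62*/- came from mothers without a WT copy of the gene, a scarce source of seeds. The mother plant, and with it the seed coat, was then mutant too. A legend of the study instead names *agl62*/+ seeds for these data, and the mean of *AGL62* is given below. The WT strain of these libraries and the pollen donor of the mutant are not given in the sources used here. The *agl62* flowers were emasculated before anthesis and pollinated by hand, and the handling of the WT flowers of these libraries is not stated. RNA of whole seeds was sequenced from 3 biological replicates per genotype. The question addressed here is how far the transcripts of auxin repressors and of auxin conjugating enzymes differed between the genotypes.

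The table holds the authors' mean normalized count of each gene in each genotype and no value of a single library, so no SD and no test is given. A gene was called when its means differed by at least 2-fold, that is by 1 on the log2 scale, and the larger mean was at least 10. This rule describes the size of a difference and does not take the spread between plants into account. The interval given beside a log2 ratio covers counting error only. It was computed from how much 1 count adds to each mean, which can be read from the lowest means of the table. These steps correspond to relative depths between 0.456 and 1.38 for the WT libraries and between 1.06 and 1.3 for the *agl62* libraries. *AGL62* (AT5G60440) itself had a mean of 410 in WT and of 1.81 in *agl62*, at least 137-fold lower against a floor of 3 normalized counts over the genotype mean. Among the 20255 genes that reached a mean of 10 in either genotype, the median log2 ratio of *agl62* over WT was 0.01, and the 5th and 95th percentiles were -0.69 and 0.75.

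Aux/IAA proteins are short-lived repressors of auxin response. They bind the activating auxin response factors (ARFs) and recruit TOPLESS corepressors to their target genes. Auxin brings Aux/IAA proteins to the TIR1/AFB receptors through a short degron, domain II, and the proteins are then degraded, which frees the ARFs. Many Aux/IAA and GH3 genes are themselves induced by auxin. The GH3 enzymes considered here join auxin to amino acids, which removes it from the active pool. Both families are therefore widely read as markers of auxin response.

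The degron can be seen in the coding sequence, and it sorts the Aux/IAA genes by a feature that expression values played no part in. Its core, a glycine followed by tryptophan and a pair of prolines, was searched as the letters TGGCCNCC in frame in the longest coding sequence of each gene, in the RefSeq annotation of TAIR10.1. The motif was found in 24 of the 29 Aux/IAA genes, in 0 of the 8 GH3 genes and in 250 of 27444 coding genes (0.91%). In 23 of the 24 it followed a codon that begins with gg, a glycine codon. The exception was *IAA31*, in which that codon was gat. *IAA20*, *IAA30*, *IAA32*, *IAA33* and *IAA34* did not hold the motif. The 30 coding bases around the motif are shown for the Aux/IAA genes with the highest levels, so that *IAA31* can be read against them. Capitals mark the 9 bases of the tryptophan and proline codons, which start at codon 186 of *IAA8*, 187 of *IAA9*, 147 of *IAA27*, 66 of *IAA4* and 48 of *IAA31*.
IAA8: gttgttggtTGGCCTCCAatcagatcatac
IAA9: attgtcggtTGGCCTCCAgtgagatcctac
IAA27: gtggtgggaTGGCCACCAataagatcattc
IAA13: gttgttggaTGGCCTCCTatagggtcacac
IAA4: attgttggaTGGCCACCAgttagatcttac
IAA31: agacaagatTGGCCACCGataaagtctaga
The stretch of *IAA3* was identical to that of *IAA4*. In all but *IAA31* of these 6, the capitals are preceded by ggt or gga.

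Auxin response elements are the DNA motifs that ARFs recognize. The letters TGTCTC and TGTCGG, forms of the element that do not overlap each other, were searched on both strands before the annotated start of each gene. Within 300 bases, 14 of the 29 Aux/IAA genes (48.28%) and 3 of the 8 GH3 genes (37.5%) held at least 1 match, compared with 17.25% of 27443 genes. Within 1000 bases the shares were 72.41% for Aux/IAA genes (21 of 29), 75% for GH3 genes (6 of 8) and 48.31% for all genes. The nearest match is shown for 5 of the 6 GH3 genes that reached a mean of 10, since the differences described next are mostly theirs. Each is written with 20 bases on either side, with the element in capitals and with coordinates and strand in TAIR10.1. Such a match is a description of the letters and not a binding site, and a window may reach into a neighboring gene.
GH3.3, chr2:9866653-9866698, minus strand, 116 bases before the start: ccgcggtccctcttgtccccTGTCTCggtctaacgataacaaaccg
GH3.2, chr4:17579454-17579499, plus strand, 144 bases before the start: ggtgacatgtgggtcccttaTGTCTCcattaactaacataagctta
GH3.4, chr1:21856943-21856988, plus strand and so opposite to the gene, 354 bases before the start: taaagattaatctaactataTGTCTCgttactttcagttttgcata
GH3.5, chr4:13653512-13653557, plus strand, 47 bases before the start: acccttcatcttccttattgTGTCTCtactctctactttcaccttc
GH3.9, chr2:19564501-19564546, minus strand, 566 bases before the start: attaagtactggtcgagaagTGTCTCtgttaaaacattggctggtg
The genes with the nearest matches, *GH3.5*, *GH3.3* and *GH3.2*, were not alike in expression, as given next. *GH3.6*, the sixth of these genes, and *GH3.17* had no match within 1000 bases. The annotation of *GH3.4* contains coding bases only (1794 exon bases, 1794 coding bases), so distances to it are counted from the first codon.

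**Figure D1:**
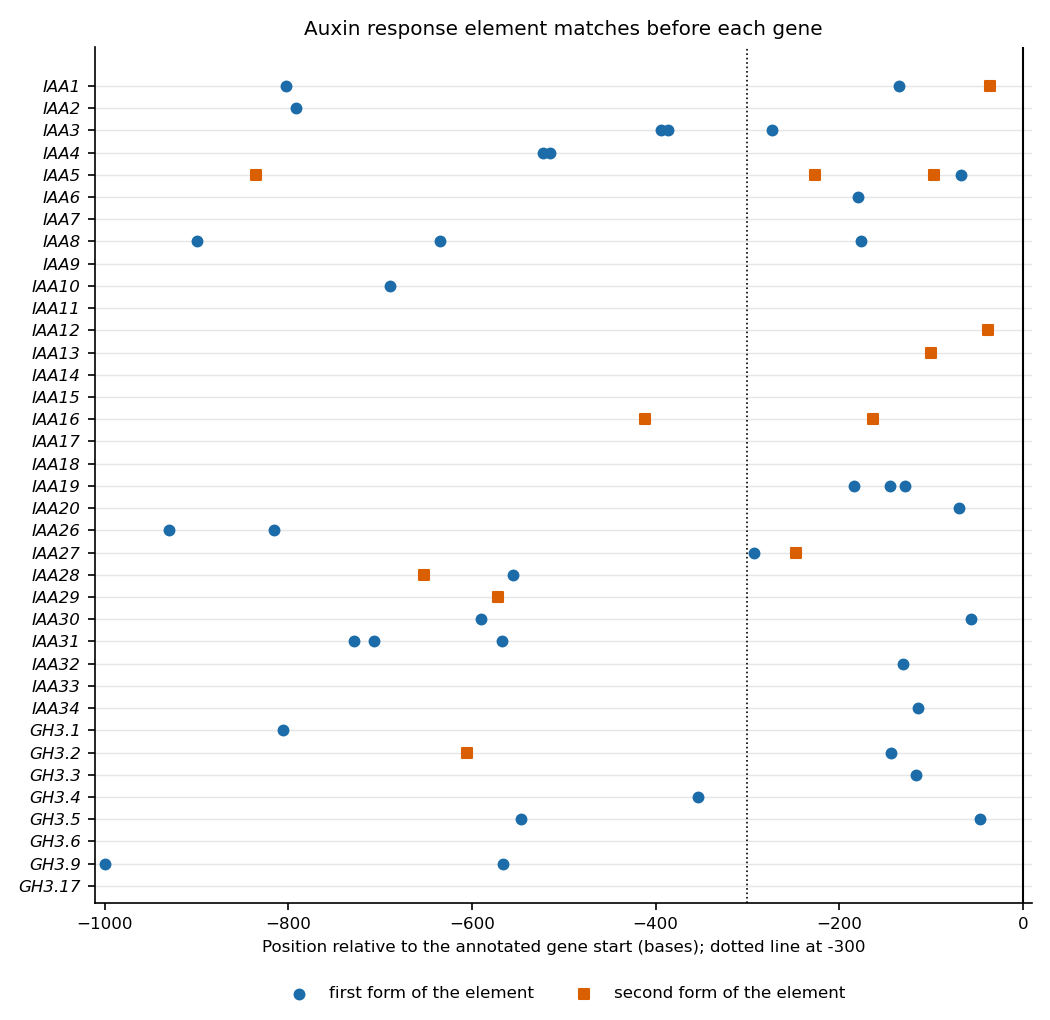
Position of every match of the auxin response element in the 1000 bases before the annotated start of the 37 genes, in bases relative to the start on the x axis. Circles are TGTCTC, squares are TGTCGG and the dotted line marks 300 bases; *IAA19* held 3 matches within 300 bases, and *IAA31* held matches only farther away.

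The largest differences among the 37 genes were in the GH3 family, and they went in both directions. *GH3.3* and *GH3.4* were 5.73-fold and 4.9-fold lower in *agl62*, *GH3.2* was 1.84-fold lower, and *GH3.5* was 1.99-fold higher. *GH3.6* and *GH3.9* stayed within 0.14 of a log2 ratio of 0. Of the 30 genes that reached a mean of 10, 2 were called lower in *agl62* (6.67%), against 3.58% of all 20255 genes. No gene of the 30 was called higher, against 3.2% of all genes, and *GH3.5* lay at the limit within the rounding of the means. In whole seeds, fewer cells of a type and less RNA per cell cannot be told apart.

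*GH3.3* (AT2G23170) encodes an enzyme that conjugates indole-3-acetic acid to amino acids, and its 3 exons span bases 9863855 to 9866562 of chromosome 2 (minus strand). Its authors' mean was 1770 in WT and 309 in *agl62*. The mutant mean was thus 17.5% of the WT mean, with a log2 ratio of -2.52 ± 0.049 (counting SE) and a counting interval from -2.61 to -2.42. *GH3.4* (AT1G59500), a close relative of *GH3.2*, also has 3 exons, which span bases 21854493 to 21856614 of chromosome 1 (minus strand). Its mean was 100 in WT and 20.4 in *agl62*, a log2 ratio of -2.29 ± 0.20 with a counting interval from -2.68 to -1.91. The interval is wider because the mutant mean rests on between 65 and 79 counts over the libraries. Both genes lay well below the 5th percentile of all genes.

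*GH3.2* (AT4G37390; chromosome 4, 17579618 to 17582022, plus strand), known as *YDK1* from a dwarf line in which it is overexpressed, had a mean of 1120 in WT and of 610 in *agl62*. Its log2 ratio was -0.88 ± 0.042, with a counting interval from -0.96 to -0.79, so it fell short of the 2-fold limit. *GH3.5* (AT4G27260; chromosome 4, 13653579 to 13656285, plus strand), also named *WES1*, acts on indole-3-acetic acid and on salicylic acid in vitro. It showed the opposite direction, with a mean of 592 in WT and of 1180 in *agl62*. The ratio was 1.99, so it was not called. Since the means are written to 3 digits the ratio could lie between 1.98 and 2.00. The rounded means thus do not settle whether *GH3.5* reached the limit. The counting interval of its log2 ratio ran from 0.91 to 1.08. *GH3.5* was the only member that was at least 1.5-fold higher in *agl62*, against 7.23% of all genes, while *GH3.2*, *GH3.3*, *GH3.4* and *IAA31* were at least 1.5-fold lower, against 5.92% of all genes.

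*GH3.6* (AT5G54510; chromosome 5, 22130964 to 22133688, minus strand), named *DFL1*, had means of 855 in WT and 821 in *agl62*. The counting interval of its log2 ratio, from -0.14 to 0.02, includes 0. *GH3.9* (AT2G47750) had means of 317 and 349, with a log2 ratio of 0.14. *GH3.17* (AT1G28130), whose enzyme prefers glutamate, was barely detected, with means of 4.31 and 6.44. *GH3.1* (AT2G14960) had a mean of 1.78 in WT and was at 0 in *agl62*, and both values are under the floor of 3, so no fold is given. The median log2 ratio of the 6 GH3 genes that reached a mean of 10 was -0.47, with values from -2.52 to 1.00. The summed means of all 8 were 4760 in WT and 3300 in *agl62*.

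**Figure D2:**
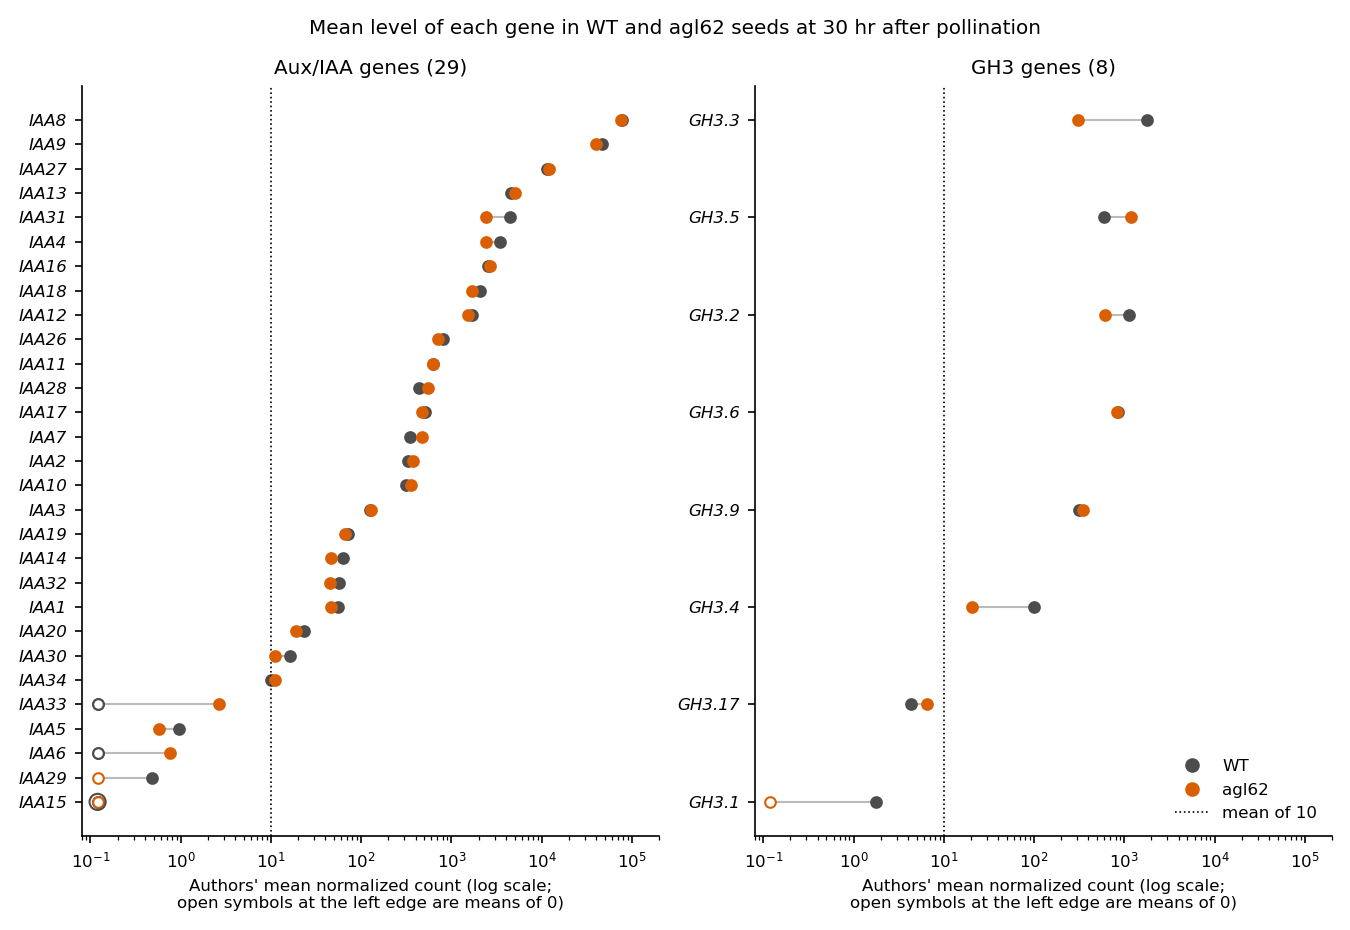
Authors' mean normalized count of each of the 29 Aux/IAA genes (left) and 8 GH3 genes (right) on a log axis, with WT in gray and *agl62* in orange and a line joining the means of a gene. Open symbols at the left edge are means of 0, so a line that ends at one has no measured length, and the dotted line marks a mean of 10. Among genes that reached a mean of 10, the widest gaps are those of *GH3.3* (1770 against 309), *GH3.4* (100 against 20.4) and, in the other direction, *GH3.5* (592 against 1180).

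Divided by exon length, the GH3 levels changed their order between the genotypes. In WT, *GH3.3* was highest with 836 normalized counts per kb of exon, followed by *GH3.2* with 516, *GH3.6* with 369 and *GH3.5* with 251. In *agl62*, *GH3.5* was highest with 501 per kb, followed by *GH3.6* with 354 and *GH3.2* with 281, and *GH3.3* was the fourth with 146. *GH3.9* had 108 and 119 per kb and *GH3.4* had 55.7 and 11.4. As a share of the summed level per kb of the 8 genes, *GH3.3* made up 39.1% in WT and 10.3% in *agl62*, whereas *GH3.5* made up 11.7% and 35.4%. *GH3.6* was nearly level between the genotypes, and its share was 17.2% in WT and 25% in *agl62* because the family sum was lower, 1410 per kb compared with 2140. No spread between libraries is available for these levels, so neighbors in the order cannot be told apart or held equal by a test.

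**Figure D3:**
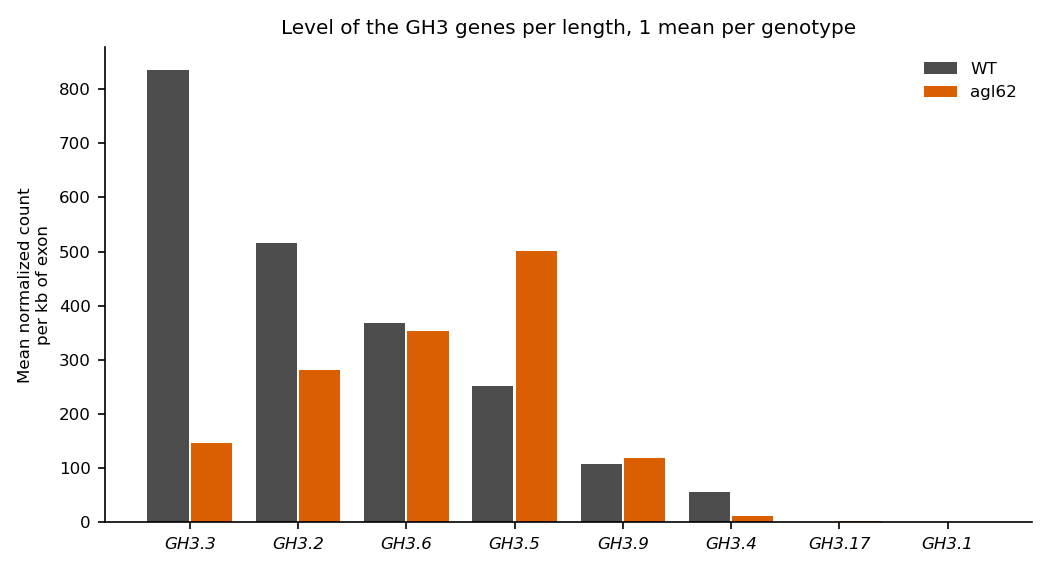
Level of the 8 GH3 genes, as the authors' mean normalized count per kb of exon, in WT (gray) and *agl62* (orange), ordered by the WT level; the bars have no error because there is 1 mean per genotype. *GH3.3* is the highest bar in WT (836) and *GH3.5* in *agl62* (501), and the bars of *GH3.17* and *GH3.1* are too low to be seen at this scale.

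Among the 8 GH3 genes, coding sequences were aligned in pairs, and *GH3.2*, *GH3.3* and *GH3.4*, which were all lower in *agl62*, were close to each other. *GH3.2* and *GH3.4* were identical at 90.9% of aligned coding bases, *GH3.2* and *GH3.3* at 81.4%, and *GH3.3* and *GH3.4* at 79.1%. *GH3.1*, whose level was too low for a fold, was identical to these 3 at between 70.0% and 73.2% of bases. *GH3.5* and *GH3.6* form a second pair, with 84.1% identity, and the remaining pairs reached at most 68.0%. The second pair was not alike in expression, since *GH3.5* was higher in *agl62* and *GH3.6* was level. The longest identical run between *GH3.2* and *GH3.4* was 65 bases, shorter than a read of 100 bases, and the authors kept uniquely mapping reads. How far reads of *GH3.2* and *GH3.4* were discarded or exchanged is not known from the table, and the values of *GH3.4*, the lower gene of this pair, are uncertain to that extent.

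The Aux/IAA genes held no called gene. Of the 29 genes, 24 reached a mean of 10, and 0 of these 24 were called in either direction, against 3.58% of all genes called lower and 3.2% called higher, a share at which few or no calls fall among 24 genes. Their log2 ratios lay between -0.89 and 0.43 with a median of -0.12, with 15 below 0 and 9 above. For comparison, the median over all 20255 genes was 0.01, and the 5th and 95th percentiles of the 16830 genes with means of 100 or more were -0.49 and 0.50. *IAA31* at -0.89 and *IAA4* at -0.52 lay below that range. The summed means of the family were 157000 in WT and 146000 in *agl62*, a log2 ratio of -0.10.

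Per length, the family was dominated by 3 genes in both genotypes. *IAA8* (AT2G22670; chromosome 2, 9636346 to 9638761, plus strand) had 37400 normalized counts per kb of exon in WT and 36400 in *agl62*. *IAA9* (AT5G65670; chromosome 5, 26253408 to 26256544, plus strand), a close relative of *IAA8* known for a role in fruit set through its tomato counterpart, had 21500 and 18500 per kb. *IAA27* (AT4G29080; chromosome 4, 14323296 to 14325361, minus strand), also called *PAP2*, had 8010 and 8430 per kb. Together these made up 81.0% of the family's summed level per kb in WT and 83.3% in *agl62*. Their means were 76900 and 74900 for *IAA8*, 46000 and 39600 for *IAA9*, and 11500 and 12100 for *IAA27*. The log2 ratios of these means were -0.04, -0.22 and 0.07, so the abundant repressors were within 0.22 of no difference. The sign for *IAA8* turned to 0.01 when the column totals were set equal.

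*IAA31* (AT3G17600; chromosome 3, 6019973 to 6021147, minus strand) had the largest difference of the 24 Aux/IAA genes that reached a mean of 10. It is the gene whose degron core lacks the glycine codon, and its protein is known to be longer lived than those with a full degron. Its mean was 4430 in WT and 2390 in *agl62*, 54.0% of WT, a log2 ratio of -0.89 ± 0.021 with a counting interval from -0.93 to -0.85. Per length it was the fourth gene of the family in WT, with 4970 normalized counts per kb of exon against 2680 in *agl62*, and its share of the family level was 6.02% and 3.52%. *IAA4* (AT5G43700; chromosome 5, 17550179 to 17551715, plus strand) came next among the abundant genes, with means of 3420 and 2390 and a log2 ratio of -0.52 ± 0.023, and with 2520 and 1760 per kb. *IAA13* (AT2G33310) had 2060 and 2270 per kb, and took the fifth place in *agl62* that *IAA4* held in WT.

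The genes without the full core were set beside those that have it. The 23 genes with a gg codon and the motif had summed means of 152000 in WT and 144000 in *agl62*, and the 19 of them that reached a mean of 10 had a median log2 ratio of -0.04, from -0.52 to 0.43. The 6 genes without it, *IAA20*, *IAA30*, *IAA31*, *IAA32*, *IAA33* and *IAA34*, had summed means of 4540 and 2480, and the 5 that reached a mean of 10 had a median of -0.34, from -0.89 to 0.17. The sum of the 6 was almost entirely *IAA31*. *IAA20* (AT2G46990) had means of 23.1 and 18.7, *IAA30* (AT3G62100) had 16.4 and 11.1, and *IAA32* (AT2G01200) had 56.9 and 45.0, whereas *IAA34* (AT1G15050) had 9.98 and 11.2. The counting intervals of *IAA20*, *IAA30* and *IAA34* include 0. The median of the 5 is the value of *IAA32*, -0.34, whose exons overlap those of a far more abundant gene, as given further on, so this median is uncertain.

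The other Aux/IAA genes with means of at least 100 covered a wide range of levels and small differences. *IAA12* (AT1G04550, *BODENLOS*), which acts with ARF5 in the embryo, had means of 1680 and 1520, and *IAA18* (AT1G51950) had 2050 and 1670. *IAA16* (AT3G04730) had 2540 and 2700, *IAA26* (AT3G16500) had 815 and 709, and *IAA11* (AT4G28640) had 631 and 617. The log2 ratios of these 5 genes lay between -0.30 and 0.09. *IAA7* (AT3G23050, *AXR2*) and *IAA28* (AT5G25890), both known from gain-of-function mutants that resist auxin, had the largest differences toward higher values. The means of *IAA7* were 349 and 471, with a log2 ratio of 0.43, and those of *IAA28* were 433 and 550, with a log2 ratio of 0.35. *IAA17* (AT1G04250, *AXR3*) had means of 506 and 470, *IAA2* (AT3G23030) of 326 and 379, *IAA10* (AT1G04100) of 314 and 358, and *IAA3* (AT1G04240, *SHY2*) of 126 and 127. None of these genes passed the 1.5-fold limit.

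Among the Aux/IAA genes of low level, 3 had means between 10 and 100 in both genotypes beside those already given. *IAA1* (AT4G14560) had means of 55.5 and 46.4, *IAA14* (AT4G14550, *SLR*) of 62.9 and 46.2, and *IAA19* (AT3G15540, *MSG2*), which had 3 response elements in the 300 bases before its start, of 71.4 and 65.4. The counting interval of the log2 ratio includes 0 for *IAA1* and *IAA19* but not for *IAA14*, at -0.45 ± 0.17. A further 5 genes did not reach a mean of 10 in either genotype. *IAA5* (AT1G15580) had means of 0.969 and 0.57, *IAA6* (AT1G52830) of 0 and 0.767, *IAA29* (AT4G32280) of 0.485 and 0, and *IAA33* (AT5G57420) of 0 and 2.63, while *IAA15* (AT1G80390) was at 0 in both. All of these values are under the floor of 3 normalized counts, so no fold is given. The mean of *IAA33* in *agl62* rests on 9 or 10 counts, against 0 counts in WT.

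**Figure D4:**
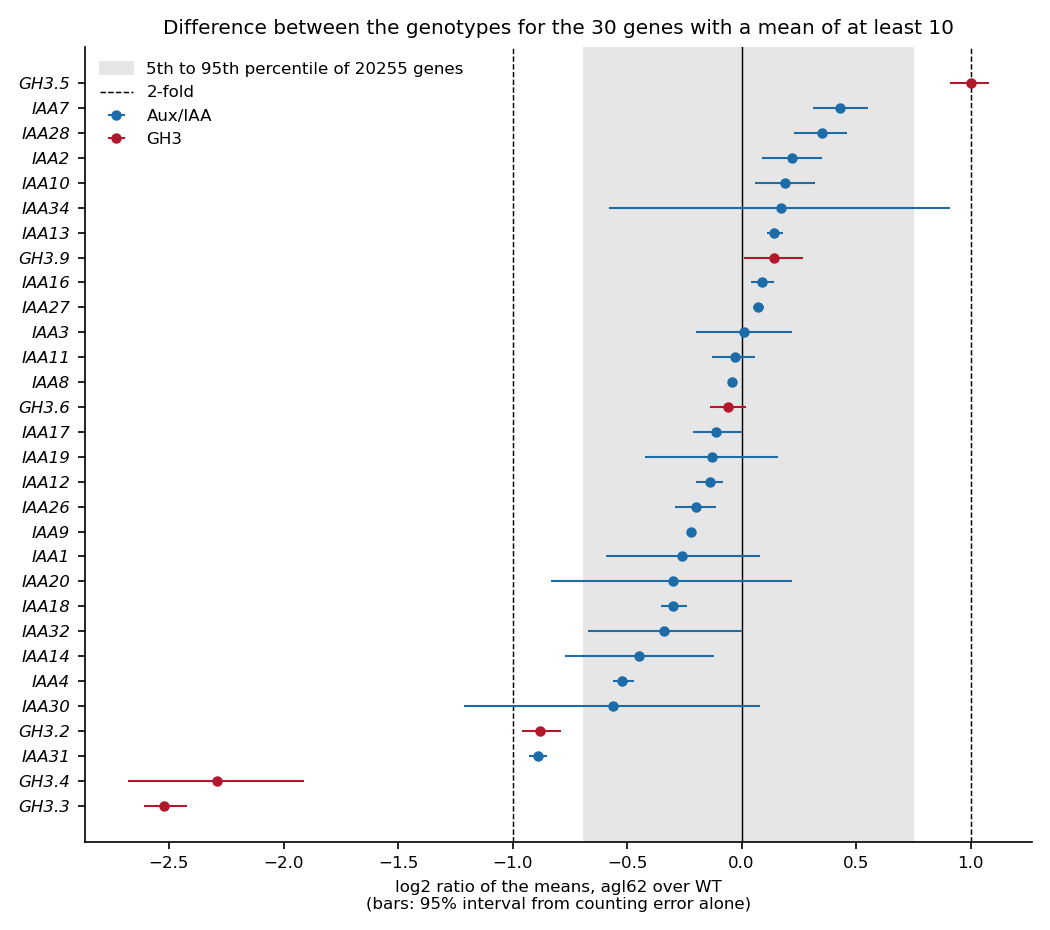
Log2 ratio of the authors' means, *agl62* over WT, for the 30 genes that reached a mean of 10, in order of the ratio, with Aux/IAA genes in blue and GH3 genes in red. Bars are 95% intervals from counting error alone, the gray band spans the 5th to 95th percentile of 20255 genes (-0.69 to 0.75) and dashed lines mark 2-fold; *GH3.3*, *GH3.4*, *IAA31* and *GH3.2* lie below the band and *GH3.5* above it.

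**Figure D5:**
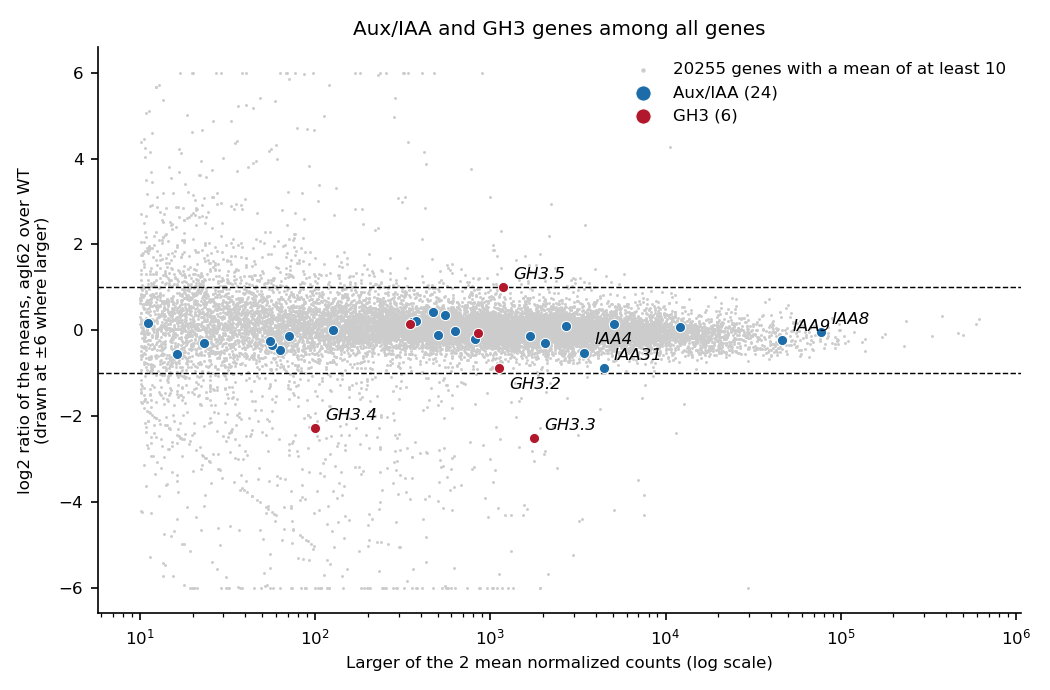
Log2 ratio of the means, *agl62* over WT, against the larger of the 2 means on a log axis for 20255 genes (gray), the 24 Aux/IAA genes (blue) and the 6 GH3 genes (red), with values beyond 6 drawn at 6. The spread of all genes is narrower at high means, and *GH3.3* at -2.52 lies far below most genes of its level while *IAA8* and *IAA9* lie near 0.

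Position along the chromosome was examined for members that lie together. *IAA1* and *IAA14* are divergent neighbors 10732 bases apart on chromosome 4, and their log2 ratios were -0.26 and -0.45. *IAA2* and *IAA7*, 12510 bases apart on chromosome 3, had log2 ratios of 0.22 and 0.43, and *IAA3* and *IAA17*, 6388 bases apart on chromosome 1, had 0.01 and -0.11. All of these values lie between the 5th and 95th percentiles of the 20255 genes (-0.69 and 0.75). Only those of *IAA3* and *IAA17* lie between the 25th and 75th percentiles (-0.16 and 0.18). Whether neighbors resemble each other was not tested. Among the 20 genes nearest to *GH3.3* that reached a mean of 10, with 10 on either side, 3 were called lower, against 3.58% of all genes, and the median log2 ratio was -0.07. *UGT84B1* (AT2G23260), which encodes a glucosyltransferase for indole-3-acetic acid, is among these 3 and starts 36.1 kb from *GH3.3*, with 8 annotated genes between. The others were AT2G23142 (means 19.9 and 3.69) and AT2G23148 (means 105 and 21.2), for which the annotation gives no name. The corresponding 20 neighbors of *GH3.2*, *GH3.4*, *GH3.5* and *IAA31* had medians of 0.13, 0.14, 0.07 and 0.09. Of these neighbors, AT4G37360 near *GH3.2* was called lower (means 25 and 11.9). AT1G59590 near *GH3.4* (171 and 409) and AT4G27220 (13.4 and 30) and AT4G27140 (0.568 and 18.5) near *GH3.5* were called higher, and none was called near *IAA31*. Sets of 20 genes hold few or no calls at the shares of all genes (3.58% lower, 3.2% higher), so nothing is read from these calls.

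Overlapping genes limit some of these values, since the sources used here do not state whether counting used the strand. The exons of 10 members overlap those of another annotated gene, and in 4 the overlap covers at least 20% of the exon bases. For *IAA32* it covers 44.22%, with AT2G01210 (means 1100 and 1200), and for *IAA3* it covers 39.56%, with AT1G04230 (means 1540 and 1530), so both members have a far more abundant partner and their values are uncertain. For *IAA13* it covers 35.28%, with a gene at or near 0, and for *IAA10* it covers 27.6%. *IAA34* shares 12.32% of its exon bases with AT1G15060 (means 1780 and 2060) on the same strand, so strand cannot separate their reads, and the log2 ratios were 0.17 and 0.21. The low values of *IAA34* are uncertain as well. None of *GH3.2*, *GH3.3*, *GH3.4*, *GH3.5* and *IAA31* overlaps another gene. No member has an exact copy of a 100-base exonic stretch elsewhere in the genome (0 of 37).

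Genes that act beside Aux/IAA proteins had log2 ratios near 0. All 6 TIR1/AFB receptor genes had log2 ratios between -0.10 and 0.22, with a median of 0.10. The 5 TOPLESS family corepressor genes lay between -0.06 and 0.06 and the 5 activating ARF genes between 0.07 and 0.20. None of the genes in these 3 lists was called, and at the shares of all genes (3.58% lower, 3.2% higher) lists of this size hold few or no calls. Other genes that respond to auxin were mostly low in these seeds. Of 20 such genes, which include SAUR and LBD genes, 7 were at 0 in both genotypes and 8 reached a mean of 10. None of the 8 was called, a list size at which the shares of all genes likewise give few or no calls, and their median log2 ratio was 0.00. *SAUR16* (46.6 and 25.6) and *SAUR15* (51.7 and 33.6) were at least 1.5-fold lower, and *SAUR21* (7 and 11.6) was at least 1.5-fold higher. The counting interval of *SAUR21*, from -0.1 to 1.56, includes 0, and those of *SAUR15* and *SAUR16* do not.

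Genes of other routes of auxin inactivation and of other GH3 substrates were also examined. *UGT84B1* had means of 29.8 in WT and 5.37 in *agl62*, 5.55-fold lower, with a log2 ratio of -2.47 ± 0.38. The remaining 3 of 5 genes for auxin inactivation that reached a mean of 10 were not called, and among them *DAO1*, an auxin oxidase, had means of 2510 and 2420. The 6 measured genes for hydrolases that release auxin from amino acid conjugates had log2 ratios between 0.01 and 0.35. None of the 6 was called, against 3.58% of all genes called lower and 3.2% called higher, shares at which few or no calls fall among them. Of 11 GH3 genes outside the 8, 5 reached a mean of 10, and 1 was called lower and 1 higher, against 3.58% and 3.2% of all genes. With a minimum of 100 neither call held, and with a pseudocount of 10 only the lower one did. *GH3.15* (AT5G13370), whose enzyme acts on indole-3-butyric acid, had means of 57.1 and 15.5, 3.68-fold lower, and *GH3.14* (AT5G13360), which lies close to it, had means of 18.8 and 40.6, 2.16-fold higher. *JAR1*, which makes the active jasmonate conjugate, had means of 2760 and 3790, *GH3.10* had 1150 and 915, and *PBS3*, of the salicylic acid pathway, had 25.3 and 22.5.

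Marker genes of the tissues of the seed were examined as well. Of 14 endosperm genes, 11 reached a mean of 10, and 7 of these were called lower in *agl62* and 1, *AGL28*, higher. The shares of all genes were 3.58% lower and 3.2% higher. With the 1.5-fold limit 8 were lower and 2, *AGL28* and *FIS2* (83.9 and 143), were higher. The median log2 ratio of the 11 was -1.59, with a range from -4.32 to 2.13, and the summed means of all 14 were 1950 in WT and 910 in *agl62*. The lowest ratios were those of *MINI3* (149 and 7.46), *TAR1* (47.6 and 5.15) and *YUC10* (32.9 and 4.6). *AGL28* was at 10.5 and 46, and *AGL90* was at 0 in WT and 9.4 in *agl62*. All 12 seed coat genes were detected, with log2 ratios between -0.14 and 0.07 and summed means of 359000 and 351000. None of them was called, and at the shares of all genes a list of this size holds few or no calls. The 12 genes of green tissue were all above 0, between 0.24 and 0.72, with summed means of 79900 and 112000. Of these, 3 (*LHCB1.2*, *RBCS1A* and *RCA*) passed 1.5-fold, against 7.23% of all genes. The 3 embryo genes of 4 that reached a mean of 10 had a median of 0.20, from -0.32 to 0.27, and the counting interval of each includes 0. The range of the endosperm markers took in the log2 ratios of all 30 members that reached a mean of 10 (-2.52 to 1.0). It therefore does not set any of them apart. The value of *GH3.5* lay above the range of the green tissue markers. *IAA8* and *IAA27*, but not *IAA9*, lay within the range of the seed coat markers. That range falls inside the 25th to 75th percentile of all 20255 genes (-0.16 to 0.18), so no tissue is read from these values. The part of tissue makeup in these results was not tested.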

How the data were processed

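Per the labels and the methods, RNA libraries of WT and *agl62* seeds (3 per genotype, 6 in all) were sequenced in 100 bp paired end mode, aligned to TAIR10 with TopHat, and compared with DESeq. The counting tool, its strand setting and the software versions are not given in the sources used here. The authors deposited 1 signal column per genotype, the mean over the libraries of a genotype after scaling by size factors, rounded to 3 digits. The deposited table also holds the authors' ratio of the means as a fold change, its log2 value, and their DESeq p-value and adjusted p-value; these were not used. No single-library values were analysed, so no count model, replicate block or omission of a replicate was run.

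Log2 ratios of the means were computed without a pseudocount, for genes with a larger mean of at least 10, and a difference of at least 2-fold was called. For the calls, a mean of 0 was set to the floor of 3, or to the other mean where that was lower. Means between 0 and 3 entered as they were. No fold is given for a gene with both means at or under 3, and the bound for *AGL62* sets its mutant mean to 3. The counting SE was the square root of 0.433 divided by the WT mean plus 0.287 divided by the *agl62* mean, divided by the natural log of 2, where 0.433 and 0.287 are the mean steps of a single count; intervals (95%) are 1.96 SE. Reads and read pairs cannot be told apart as the unit of counting. Levels between genes were compared per kb of merged exons. Exons, coding sequences, gene positions and upstream sequences came from RefSeq for TAIR10.1, joined by locus identifier, since the table holds no coordinates. The genes named were all 37 members, with the called and most abundant in full. From other lists, up to 3 genes with the largest differences of at least 2-fold in each direction were named, with *AGL62*. *DAO1*, *JAR1*, *GH3.10*, *PBS3*, the SAUR genes, the neighbors of the GH3 genes, *AGL90*, *FIS2* and the green tissue markers were named after their values were seen. The members and lists were chosen with earlier results of these data known. Alternatives were no minimum, a minimum of 100, pseudocounts of 1 and 10, equal column totals, a median of 0 and a 1.5-fold limit. Scripts were tested on simulated data and used Python 3.11.15, numpy 2.4.6, pandas 2.3.3, Biopython 1.88 and matplotlib 3.10.9.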

Additional observations from a re-analysis of the deposited data

How the results depend on the processing

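*GH3.3* and *GH3.4* were the 2 members called lower in *agl62* with no minimum, with a minimum of 100, with pseudocounts of 1 and 10, with equal column totals and with the median of all genes at 0. With a 1.5-fold limit, 4 members were lower (*IAA31*, *GH3.2*, *GH3.3* and *GH3.4*) and 1 was higher (*GH3.5*). With equal totals, a shift of 0.05 on the log2 scale, 1 member was called higher (*GH3.5*, log2 ratio 1.04), against 0 in the main setting. The median log2 ratio of the GH3 genes was -0.47, and it was -0.03 with no minimum, when the 2 genes with means under 10 were added. In that setting *GH3.1*, at 0 in *agl62*, entered with a log2 ratio set to 0 by the rule for zero means. The value of -0.03 rests on this and is not a measured shift. Otherwise the median of the GH3 genes stayed between -0.48 and -0.42, and that of the Aux/IAA genes between -0.13 and -0.03. The log2 ratio of *GH3.4* was -1.86 with a pseudocount of 10. No paired analysis was possible because only 1 mean per genotype was at hand, and for the same reason no replicate could be left out. The depth limits the 7 members with means under 10.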
